A study of Rattus norvegicus with 4 samples.

Results

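The genes of voltage-gated ion channels and their relatives were followed through neuron-astrocyte co-culture and through the removal of neurons by cold jet. All genes whose name on the array started with Kcn (potassium channels), Scn and a number (sodium channels), Cacn (calcium channels) or Hcn and a number (hyperpolarization-activated channels) were taken, except Kcnj10. This gave 127 of the 35658 genes on the array, read by 159 of its 41012 probes, with 84 potassium, 14 sodium, 25 calcium and 4 HCN channel genes. The names also cover channels that are not gated by voltage, such as inward rectifiers and background channels, and accessory subunits that form no pore.

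RNA came from 3 kinds of culture. CC was a co-culture of cortical astrocytes of Wistar rat pups (P1) with hippocampal neurons of mouse embryos (E18), which received no cold jet. CC-CJ was the same kind of co-culture after cold jet, a stream of ice-cold buffer directed at the cell layer that detaches neurons and leaves the astrocytes. AA-CJ was an astrocyte culture without neurons that also received cold jet, so that all groups hold Wistar rat astrocytes and no group holds untreated astrocytes alone. Neuronal mRNA was thus of mouse origin and was read by probes designed for rat, and how well each probe binds the mouse sequence was not tested. The microarrays carried 2 dyes each. Cy3 marked CC-CJ throughout, and Cy5 marked its partner, which was CC on 2 arrays and AA-CJ on the other two. As there was no dye swap, dye and treatment cannot be told apart within an array, whereas CC and AA-CJ were read in the same dye. Replicates came from different pools of animals, and each comparison rests on 2 arrays. In bulk RNA, fewer cells of a type and less RNA per cell cannot be told apart.

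A voltage-gated channel opens its pore when the membrane potential changes. Sodium channels carry the upstroke of the action potential, potassium channels repolarize the membrane and set the firing pattern, and calcium channels couple depolarization to transmitter release and gene expression. Pore subunits of voltage-gated potassium channels assemble as tetramers, while sodium and calcium channels are built around 1 long pore subunit with beta, gamma or alpha2delta subunits beside it. Neurons express many of these genes, and astrocytes are known mainly for inward rectifier and tandem-pore (K2P) potassium channels, which hold the membrane near the potassium equilibrium potential.

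Of the 5 channel genes that passed a test in at least 1 comparison below, Kcnh1, Kcnma1 and Cacna2d1 are listed in the RefSeq table of rat promoters (build GRCr8), and Kcna1 and Cacnb1 are not printed. The 250 bases before the annotated start are shown because the first pair fell after cold jet, while Cacna2d1 passed only in the comparisons with astrocytes alone. Capitals mark the GC box, GGGCGG on either strand, with overlapping matches joined. For Cacna2d1 the first of 3 listed starts is given.
Kcnh1, chr13:106252966-106253215, plus strand: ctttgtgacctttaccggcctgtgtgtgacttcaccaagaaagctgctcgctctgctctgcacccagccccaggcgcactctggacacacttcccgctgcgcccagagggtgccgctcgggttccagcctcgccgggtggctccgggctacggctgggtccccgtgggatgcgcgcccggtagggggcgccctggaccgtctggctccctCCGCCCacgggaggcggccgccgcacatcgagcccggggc
Kcnma1, chr15:351675-351924, plus strand: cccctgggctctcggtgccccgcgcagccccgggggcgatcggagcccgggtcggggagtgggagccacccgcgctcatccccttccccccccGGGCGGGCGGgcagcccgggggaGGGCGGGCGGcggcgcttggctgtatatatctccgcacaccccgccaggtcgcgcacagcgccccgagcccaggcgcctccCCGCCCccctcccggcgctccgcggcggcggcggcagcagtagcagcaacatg
Cacna2d1, chr4:20330148-20330397, minus strand: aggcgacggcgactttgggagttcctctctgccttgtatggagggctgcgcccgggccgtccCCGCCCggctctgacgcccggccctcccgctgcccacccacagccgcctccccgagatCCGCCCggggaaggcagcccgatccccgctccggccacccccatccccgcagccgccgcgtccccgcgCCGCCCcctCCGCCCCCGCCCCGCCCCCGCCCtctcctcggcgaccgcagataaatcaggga
The GC box was found 1 time for Kcnh1, 5 times for Kcnma1 and 7 times in this window of Cacna2d1, and GC content was 71.6%, 79.6% and 77.2%. Neither TATAAA nor CACGTG was found in these windows on either strand. Over all 33469 listed promoters 30.5% held the GC box in the same window and median GC content was 51.2%, against 47.5% and 65.4% for the 40 promoters of tested channel genes. These are rat sequences, whereas the neurons were those of mouse, and a match describes letters and no bound factor.

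Depth on an array is signal over background. Per array, 50.1 to 55.7% of probes were well above local background in Cy3 and 56.2 to 62.5% in Cy5, 0 to 4 spots per channel were saturated, and 121 to 179 spots were left out as outliers. The M values (log2 of CC-CJ over the other RNA) correlated over genes with r = 0.556 between both AA-CJ arrays and with 0.618 between both CC arrays, as a description across genes, which are not independent replicates. Cold jet lowered 8 of 10 tested neuronal markers (limma, adjusted p below the threshold of 0.05) and 0 of 9 astrocyte markers, and all 9 astrocyte markers were above background in all RNAs. The neuronal markers without a call were Stmn2 and Syt1.

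Channel mRNAs were detected less widely than the average gene, and potassium channels least. A gene was counted as detected where at least 1 of its probes was well above background on both arrays of an RNA. In CC, 56 of 127 channel genes (44.1%) were detected, against 59% of all genes on the array. The share was 36.9% for potassium channels (31 of 84), 50% for sodium channels (7 of 14), 60% for calcium channels (15 of 25), and 3 of 4 for HCN channels. In AA-CJ, 40 of 127 (31.5%) were detected, against 53.9% of all genes. The shares were 27.4% for potassium (23 genes), 35.7% for sodium (5 genes) and 40% for calcium channels (10 genes), and 2 of 4 for HCN channels. All 40 genes detected in astrocytes alone were also detected in co-culture. Another 16 were detected in CC but not on both AA-CJ arrays, of which 8 were potassium, 2 sodium, 5 calcium and 1 HCN channel genes, and 7 of the 16 were above background on no AA-CJ array. The order of the 3 large classes was the same in both RNAs, but classes are sets of different genes and not replicates, and the order was not tested.

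**Figure D1:**
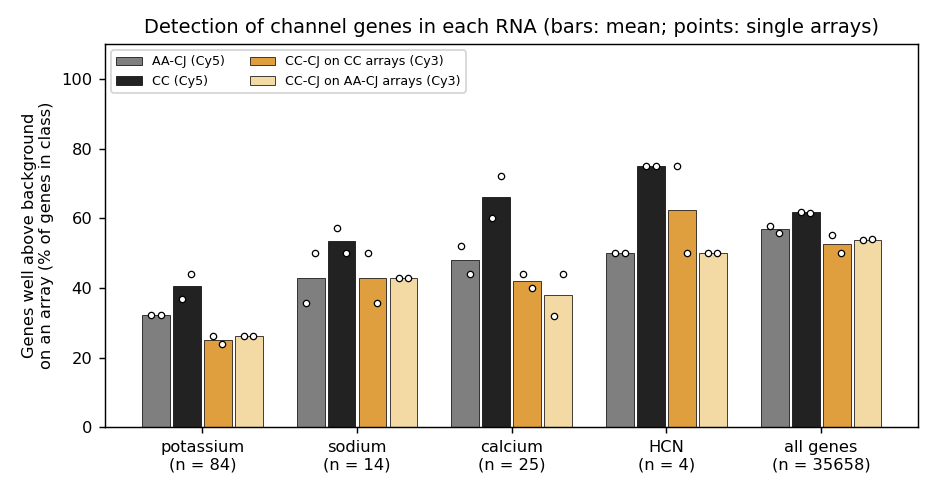
Share of genes of each channel class, and of all genes, that were well above background on single arrays (y axis, percent), for AA-CJ and CC in Cy5 and for CC-CJ in Cy3; bars are means of 2 arrays and points are single arrays. Potassium channels lie lowest in all RNAs, between 23.8 and 44.1% on single arrays, and all genes lie between 50.1 and 61.7%.

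Within the potassium channels, detection in CC ranged from 6 of 10 K2P genes over 15 of 38 Kv pore genes, 5 of 14 inward rectifiers and 2 of 7 calcium- or sodium-activated channels down to 3 of 15 auxiliary subunits. Among sodium channels 3 of 4 beta subunits but 4 of 10 pore subunits were detected. For calcium channels all 4 beta subunits were detected, against 5 of 10 pore, 2 of 3 alpha2delta and 4 of 8 gamma subunits. Several channels that are prominent in brain stayed at background. Scn1a and Scn8a, pore subunits of nodal and axonal sodium channels, were above background on no array of CC or AA-CJ. The same held for Scn2b, for Kcnc1 and Kcnq3, which shape repolarization and the M current, for Kcnj6 and Kcnab1, and for Cacna1a, the pore of P/Q-type calcium channels. Kcna2, Kcnd2, Kcnn2, Kcnk1, Scn3a and Cacna1g were above background on at most 1 array of CC and at most 1 of AA-CJ. For these genes and the rest of the 71 that were not tested, only a bound can be given, and no change was tested. CC-CJ detected 31 channel genes on the CC arrays (24.4%, against 47.9% of all genes). On the AA-CJ arrays it detected 35 (27.6%), against 40 in AA-CJ. Fewer genes were above background in Cy3 than in Cy5 on every array, so that dye and treatment cannot be told apart in these counts.

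With the background offset of 50 used here, cold jet lowered a few channel genes and most others read close to their level in co-culture. Of the 56 tested genes, 4 fell from CC to CC-CJ and 0 rose (limma, Benjamini-Hochberg over 21311 genes, adjusted p below 0.05), which is 7.14% against 2.26% of all genes tested for a fall and against 0.0985% for a rise. At an unadjusted p below 0.05, 15 were lower and 3 higher, against 2511 lower and 1090 higher of the 21311 genes tested. The genes that fell were the potassium channels Kcna1, Kcnh1 and Kcnma1 and the calcium channel beta subunit Cacnb1. Kcnh1 and Kcnma1 entered the test through CC alone, the RNA where they were high. The filter therefore favoured their fall, and the count of 4 is a description only. By class, 3 of 31 potassium, 1 of 15 calcium, 0 of 7 sodium and 0 of 3 HCN channel genes fell. At an unadjusted p, these numbers were 7 potassium, 4 calcium, 2 sodium and 2 HCN channel genes. The median log2 change was -0.12 for potassium, -0.12 for sodium, -0.08 for calcium and -0.29 for HCN channels, and -0.02 over all genes. M was below 0 on both arrays for 37 of 56 channel genes (66.1%), against 38.3% of all genes, and for 22 potassium, 4 sodium, 8 calcium and 3 HCN channel genes. It was above 0 on both arrays for 7 channel genes, against 26.8% of all genes. All 56 tested genes were detected in CC, and 15 of them entered through CC alone, so that the filter favours genes that read higher in CC and these shares and medians are a description only. The median of channel genes was -0.05 without the filter and -0.04 for the 30 genes detected in each channel of each array. All these medians were taken with offset 50, which pulls the ratios of dim genes towards 0. With offset 16 the median of the 56 genes was -0.16, against -0.02 over all genes. With Agilent's log ratio, which has no offset, it was -0.46, against -0.002 over all genes. Of the 56 genes, 14 were above background on neither CC array in CC-CJ, so that their ratios without offset rest on background signal. The median with Agilent's log ratio was not taken for the 30 genes. Beyond the 4 genes that fell, most changes were small with offset 50: 35 of 56 lay within 0.2 of 0 on the log2 scale, where the median standard error was 0.0877. Without replicate 2 of the CC arrays Kcna1 and Cacnb1 passed and Kcnh1 and Kcnma1 did not. With Agilent's own log ratio none of the 4 passed, although Kcna1 changed by -2.20 there (adjusted p = 0.0932, limma). A selection of genes beyond 2 SD of M on both arrays took 6 channel genes as lower and 0 as higher (2.33% and 0.216% of all genes), namely these 4, Scn2a1 and Scn3b.

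**Figure D2:**
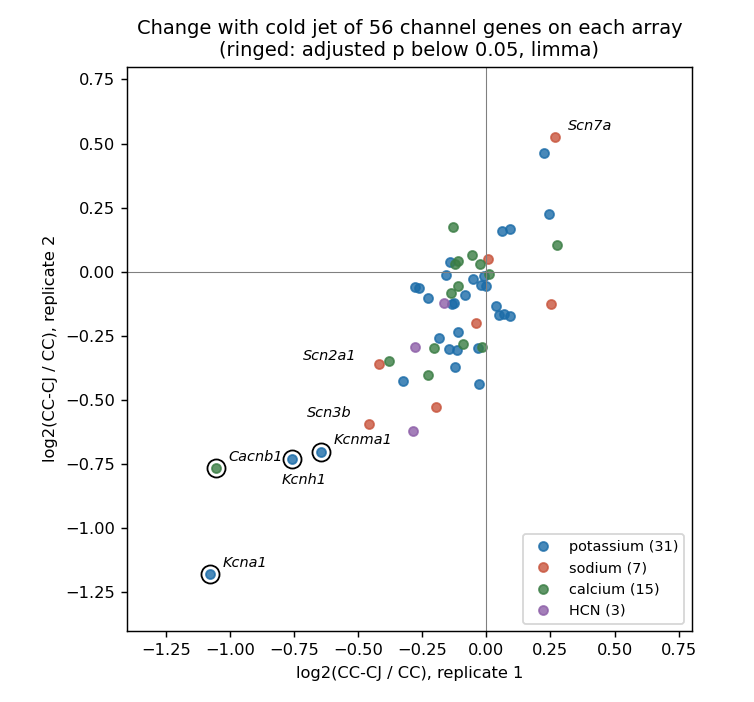
Log2 of CC-CJ over CC for 56 channel genes on the array of replicate 1 (x axis) and of replicate 2 (y axis), coloured by class, with genes past an adjusted p of 0.05 ringed. Kcna1, Cacnb1, Kcnh1 and Kcnma1 lie apart at the lower left on both arrays, and most of the other 52 genes lie closer to 0, more of them below than above it.

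Kcna1 encodes Kv1.1, a delayed rectifier of axons and terminals. Its fall was the greatest of the 56 with the offset used here, whereas with Agilent's log ratio, which has no offset, Cacnb4 (-2.72) and Kcnh1 (-2.51) lay below it (-2.20). On the rn4 build its probe maps to chromosome 4, 163012003 to 163012062. In log2 intensity after normalization, CC read 8.02 and 7.95, and CC-CJ on the same arrays read 6.94 and 6.77. AA-CJ read 6.09 and 6.33, not well above background on either array, and CC-CJ on those arrays 6.39 and 6.66. The highest level was that of both CC samples, with no overlap with any other RNA. CC-CJ lay between CC and AA-CJ on all arrays. The log2 change of CC-CJ against CC was -1.08 and -1.18 on the 2 arrays, with a mean of -1.13 (standard error 0.0809, adjusted p = 0.000825, limma), or 2.19-fold. A second Kcna1 probe on the same transcript, from 163011052 to 163011111, was not above background in any RNA.

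Kcnh1 encodes Kv10.1, a slowly activating channel of the ether-a-go-go family. Its probe is on chromosome 13 from 108407705 to 108407764. CC read 7.45 and 7.51 in log2 intensity, against 6.70 and 6.78 in CC-CJ on the same arrays and 6.33 and 6.37 in AA-CJ, where it was not above background. CC lay above all other readings. On the AA-CJ arrays CC-CJ read 6.38 and 6.29, on either side of AA-CJ. The log2 change with cold jet was -0.76 and -0.73, with a mean of -0.74 (standard error 0.0826, adjusted p = 0.00613, limma). In CC-CJ the probe was well above background on 1 of the 2 CC arrays.

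Kcnma1 is the pore of the large-conductance calcium-activated (BK) channel, which couples calcium entry to repolarization. The probe on chromosome 15 from 949056 to 949115 read 7.15 and 7.34 in CC and 6.51 and 6.64 in CC-CJ, where it was not above background. AA-CJ read 6.04 and 6.34, also at background, and no RNA overlapped with CC. CC was therefore at least 1.595-fold higher than CC-CJ (log2 change -0.67, standard error 0.0887, adjusted p = 0.0124, limma). For such a bound, the brighter RNA is divided by whichever is greater on the dim array, the signal of the spot itself or the smallest signal that counted as well above background. A second probe, from 950209 to 950268, was above background on both arrays of no RNA and was not tested, and with both averaged the change was -0.30 (adjusted p = 0.165, limma). Kcnmb4, the BK subunit of neurons, had a log2 change of -0.23 (adjusted p = 0.347, limma), with -0.03 and -0.44 on the arrays.

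Cacnb1, a cytoplasmic subunit that brings calcium channel pores to the membrane, was read by a probe on chromosome 10 from 86764289 to 86764348. CC read 8.37 and 8.48, CC-CJ on the same arrays 7.31 and 7.71, and AA-CJ 6.91 and 7.40, all above background. AA-CJ and CC-CJ overlapped and CC lay above both. The log2 change with cold jet was -1.06 and -0.77, with a mean of -0.91 (standard error 0.102, adjusted p = 0.00646, limma). None of the other beta subunits passed. Cacnb3, above background in all RNAs, changed by -0.11 (adjusted p = 0.521), Cacnb2 by 0.02 (adjusted p = 0.937), and Cacnb4 by -0.36 (adjusted p = 0.0907, limma). Cacnb4 read -0.38 and -0.35 on the arrays and passed with offset 16, with the authors' values and with Agilent's log ratio, where Cacnb1 did not pass. It was above background in CC alone, which read at least 1.29-fold higher than CC-CJ.

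Other named potassium channels did not pass. Kcnh2 (the HERG channel) changed by -0.08, Kcnj3 (a G protein-gated inward rectifier) by -0.03 and Kcnab2 (a cytoplasmic beta subunit) by -0.04. The K2P channel Kcnk2 (TREK-1) changed by -0.17 (adjusted p = 0.448, limma). Kcnip3, listed on the array under its older name Csen and so outside the name rule, changed by -0.21 (adjusted p = 0.265, limma). The K2P channel Kcnk5, listed as LOC364241 and also outside the rule, changed by -0.54 (adjusted p = 0.0632), and gave -0.50 in CC-CJ against AA-CJ (adjusted p = 0.058, limma).

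No sodium channel gene passed the test as a mean over its probes. Scn3b, a beta subunit, had the lowest value with -0.46 and -0.59 on the 2 arrays (mean -0.53, adjusted p = 0.342, limma). Its spread came from the AA-CJ arrays, which share the error estimate of the model and read 0.44 and -0.76 for CC-CJ against AA-CJ. In a fit on the 2 CC arrays alone Scn3b passed. Scn7a (Nax, a sodium sensor of glia rather than a channel of action potentials) changed by 0.40 (adjusted p = 0.278, limma). Scn2a, listed as Scn2a1, is the sodium channel pore of young axons and gave -0.42 and -0.36 (mean -0.39, adjusted p = 0.105, limma).

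That mean joined probes that disagreed. The Scn2a1 probe on chromosome 3 from 47720286 to 47720345 read -0.76 and -0.68 (mean -0.72, adjusted p = 0.0174 over all probes, limma), whereas the probe from 47722600 to 47722659 on the same transcript read -0.08 and -0.04 (mean -0.06, adjusted p = 0.776). Hcn2, a pacemaker channel, behaved likewise. The probe on chromosome 7 from 11484701 to 11484760 read -0.49 and -0.55 (mean -0.52, adjusted p = 0.038) and that from 11485814 to 11485873 read -0.06 and -0.04 (mean -0.05, adjusted p = 0.802). Among all probes tested, 2.31% were lower at this threshold. With probes as the unit, 6 channel genes had at least 1 probe that fell, namely the 4 above, Scn2a1 and Hcn2. In both genes the probe with the fall was above background on both arrays of all RNAs, while the other Hcn2 probe was above background on no CC-CJ array and the other Scn2a1 probe on 1 of 2 CC arrays in CC-CJ. The other 5 genes with 2 kept probes were Kcng2, Hcn3, Kcnk6, Cacna1d and Cacna1e, and none of their probes passed.

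**Figure D3:**
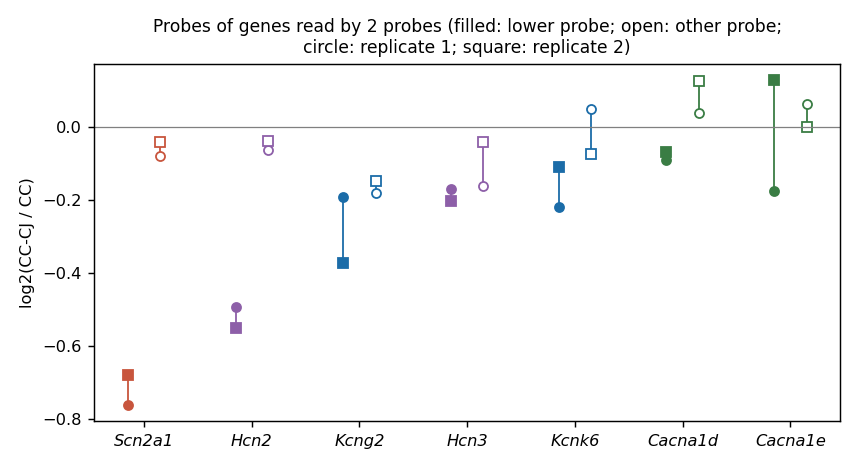
Log2 of CC-CJ over CC (y axis) for each probe of the 7 channel genes with 2 kept probes (x axis); filled symbols are the lower probe of a gene, open symbols the other, circles replicate 1 and squares replicate 2. The probes of Scn2a1 lie at -0.72 and -0.06 and those of Hcn2 at -0.52 and -0.05 on average, further apart than their replicates.

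Pore subunits of calcium channels did not pass. Cacna1b (N-type) changed by -0.19, Cacna1c by -0.05 and Cacna1d by 0.00 (both L-type), Cacna1e (R-type) by 0.00 and Cacna1h (T-type) by -0.08. The alpha2delta subunit Cacna2d1 changed by -0.03 and Cacng2 (stargazin, which also carries AMPA receptors to synapses) by -0.16. None of these had an adjusted p below 0.344 (limma).

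Markers of neurons and of other glia moved in the same comparison. The summed level of the 10 neuronal markers was 20750 and 21090 in CC and 8486 and 8361 in CC-CJ on the same arrays, against 8628 and 9232 in AA-CJ. A linear sum is weighted towards bright markers and does not show complete removal. In CC-CJ against AA-CJ, 4 of the 10 were higher and 0 lower (adjusted p below 0.05, limma). These were Gap43 by 2.03, Dcx by 0.87, Mapt by 0.63 and Elavl4 by 0.57 on the log2 scale. Snap25 and Syt1 were above background in CC alone. Of 4 microglial markers 2 fell (Tyrobp by 0.74 and Aif1 by 0.53 on the log2 scale), with sums of 817 and 783 in CC and 582 and 556 in CC-CJ. Of 7 markers of the oligodendrocyte lineage 2 fell (Sox10 by 1.12 and Mag by 0.82), with sums of 3127 and 3779 in CC and 2749 and 2541 in CC-CJ. None of 2 endothelial and 9 astrocyte markers fell, and the astrocyte sums were 35290 and 36640 in CC and 36090 and 38300 in CC-CJ. Of all genes tested, 2.26% fell. Snap25, Aif1 and Mag entered the test through CC alone, the RNA where they were high, so that the filter favoured their fall. The part of each cell type in the change of the channel genes was not tested.

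How much channel mRNA was left after cold jet was computed as CC-CJ minus AA-CJ in percent of CC minus AA-CJ, for genes with a fitted difference of at least 2-fold between CC and AA-CJ. By the fit Kcna1 alone qualified, although Cacnb1, Kcnh1 and Kcnma1 were also over 2-fold apart by their levels. Each value joined a CC array and an AA-CJ array of the same replicate number, although the labels state no common source. The SD depends on this pairing. Kcna1 gave 28.7% and 17.3% in the 2 pairs (23% ± 8.09, SD, n = 2), and without loess the mean was -5.84%. With loess, 7 neuronal markers gave 9.07% ± 0.799 (SD, n = 2). The difference was not tested, and as AA-CJ was at background for Kcna1, the subtracted part is an upper limit of its level. Without subtraction, Kcna1 in CC-CJ was 45.8% ± 2.26 (SD, n = 2) of CC. In genes at least 1.5-fold higher, a limit chosen after the data were seen, Cacnb1 retained 20.1% on average, Kcnk2 66.1% and Cacna2d1 98%. No percentage is given for Kcnh1 and Kcnma1, which were at background in AA-CJ and on at least 1 array in CC-CJ.

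Most channel genes detected in CC gave a signal in astrocytes alone near that of co-culture, in part as an upper limit. Of the 56 genes, 16 were not detected on both AA-CJ arrays, and 7 of these were above background on none. Values at background are upper limits, and the medians below include them. For each gene above background in CC, AA-CJ was expressed as percent of CC, since levels of different probes cannot be set against each other. The median was 93% ± 1.56 (SD, n = 2 pairs of same-numbered arrays, with no stated common source) over 56 channel genes. It was 95.1% ± 0.838 for potassium, 97.4% ± 14.8 for sodium, 92.7% ± 3.1 for calcium and 83.8% ± 2.97 for HCN channels. The medians of the 3 large classes lay within the spread of the sodium channels. All genes gave 102% ± 0.342 and neuronal markers 13.9% ± 0.59. The offset of the background correction is part of these levels and pulls dim genes towards 100%. Among genes above background in AA-CJ, Cacnb1 read 41.8% and Cacna2d1 57.4%. Kcna1 with 29.4%, Kcnh1 with 45.7% and Kcnma1 with 48.1% were not above background in AA-CJ. These values are upper limits only as far as levels compare between arrays. The fit within arrays gave smaller differences, with CC 2.72-, 1.66- and 1.59-fold higher. At the other end stood Kcns3 with 122%, a silent subunit, and Kcnd3 with 121%, the latter with 100% and 143% in the 2 pairs of arrays. The Kcnd3 probe maps to chromosome 3 of rn4 and its accession was not found in the RefSeq table, so that its gene is uncertain.

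**Figure D4:**
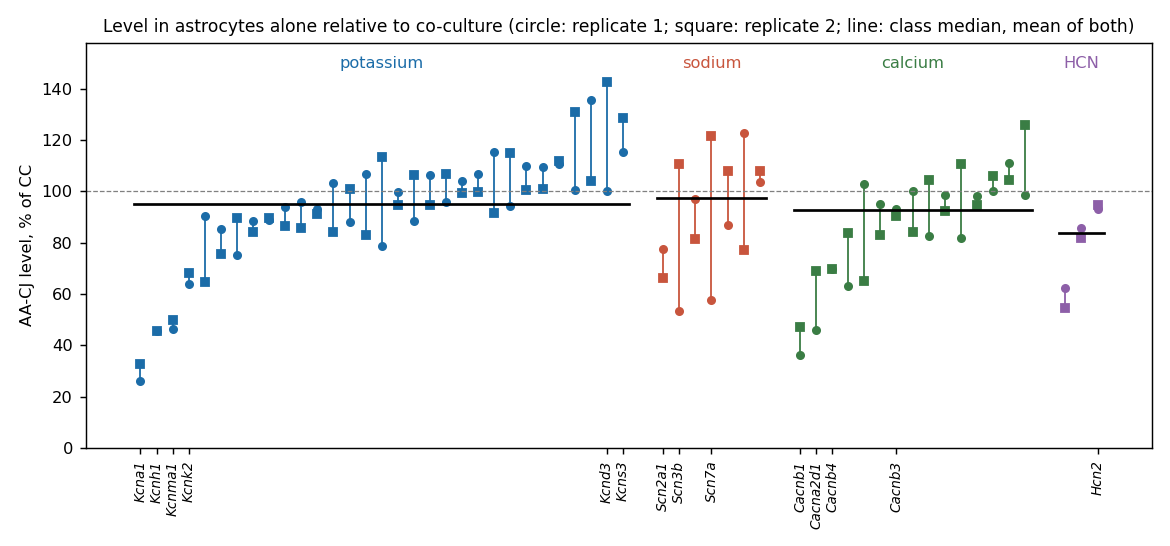
Level of each tested channel gene in AA-CJ as percent of its level in CC (y axis), by class, with replicate 1 as a circle, replicate 2 as a square and the class median as a black line, and with only some genes labelled. Kcna1, Kcnh1, Kcnma1 and Cacnb1 lie below 50% in both pairs of same-numbered arrays, and the class medians lie between 83.8 and 97.4%.

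The difference between CC and AA-CJ, both read in Cy5, was tested as well. Of 56 genes, 5 were higher in CC and 0 lower (limma, adjusted p below 0.05), against 2.59% of all genes higher and 0.0798% lower. At an unadjusted p below 0.05, 10 were higher and 0 lower, against 2417 higher and 1370 lower of the 21311 genes tested. All 56 genes were detected in CC and 0 in AA-CJ without CC, and 15 entered through CC alone, among them Kcnh1 and Kcnma1. The filter thus favours genes that read higher in CC, and these counts are a description only. By the fit, which uses ratios within arrays, Kcna1 was 2.72-fold higher than in AA-CJ (log2 change 1.45, standard error 0.114, adjusted p = 0.00136, limma). Kcnh1 was 1.66-fold higher (0.73, adjusted p = 0.028) and Kcnma1 1.59-fold (0.67, adjusted p = 0.0485, limma). All 3 were at background in AA-CJ. By levels, read on different arrays, CC was 3.43-, 2.19- and 2.08-fold higher in the same order. These ratios exceed the fitted values and are no lower limits of the difference. Cacnb1 was higher by 0.95 (adjusted p = 0.0233) and Cacna2d1 by 0.86 (adjusted p = 0.0499). Without replicate 1 of either kind of array, Kcna1 alone passed, and without replicate 2 of the CC arrays Kcna1 and Cacnb1 did. By class 3 of 31 potassium, 2 of 15 calcium, 0 of 7 sodium and 0 of 3 HCN channel genes passed. Since this comparison shares its arrays with that of CC-CJ against CC, the recurrence of the same 4 genes is no independent result. Scn2a1 gave 0.52 (adjusted p = 0.108) and Kcnk2 0.64 (adjusted p = 0.0862, limma).

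Whether astrocytes change their channel mRNAs when cultured with neurons was read from CC-CJ against AA-CJ, both after cold jet. One gene passed, as Cacna2d1 was higher in CC-CJ (1 of 56, or 1.79%, against 1.93% of all genes) and 0 were lower (against 1.15%). M was below 0 on both arrays for 18 of 56 channel genes, against 36.2% of all genes, and above 0 for 19, against 29.3% of all genes. The selection by 2 SD took the same gene as higher (1.88% of all genes) and 0 as lower (1.14%). At an unadjusted p below 0.05, 5 were higher and 2 lower, against 2296 higher and 2519 lower of the 21311 genes tested. The share of genes that passed was thus near that of all genes. Cacna2d1, the alpha2delta-1 subunit, which is the receptor of gabapentin and of thrombospondins from astrocytes, read 10.92 and 11.65 in AA-CJ in log2 intensity and 11.95 and 12.27 in CC-CJ on the same arrays. On the CC arrays CC-CJ read 11.94 and 12.23 and CC 12.05 and 12.19. Co-cultures with and without cold jet overlapped and lay above astrocytes alone, so that the gene was higher by 0.82 in CC-CJ (1.03 and 0.62 on the 2 arrays, standard error 0.115, adjusted p = 0.0237, limma), or 1.77-fold, with a change of -0.03 from CC to CC-CJ. Without replicate 1 of the AA-CJ arrays the difference was 0.62 (adjusted p = 0.0974, limma), with Agilent's log ratio 0.81 (adjusted p = 0.14), with the replicate number as a block 0.82 (adjusted p = 0.0666), and when arrays were centred on their median without loess it turned to -0.48, where the median of all genes was -0.49. Its probe is on chromosome 4 from 15139912 to 15139971.

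The K2P channel Kcnk2 showed a like order with smaller values. AA-CJ read 9.34 and 9.59, CC-CJ on the same arrays 9.98 and 9.89, CC-CJ on the CC arrays 9.88 and 9.90, and CC 9.99 and 10.14. The level was higher in all samples from co-culture than in both AA-CJ samples, but the log2 difference of 0.47 between CC-CJ and AA-CJ missed the threshold (0.64 and 0.31 on the arrays, adjusted p = 0.0626, limma). Scn7a read 12.23 and 13.02 in AA-CJ and 13.27 and 13.41 in CC-CJ, with a difference of 0.71 (1.05 and 0.38, adjusted p = 0.0635, limma). Kcna1 gave 0.32 (adjusted p = 0.0837) and the probe listed as Kcnd3, whose gene is uncertain, gave -0.33 (adjusted p = 0.0764, limma). With median centring in place of loess Kcnk2 turned to -0.59 and Scn7a to -0.75. Scn3b went in opposite directions on the arrays, with 0.44 and -0.76. Of the neuronal markers 4 of 10 were higher after co-culture in this comparison, of the microglial markers 1 of 4 (Tyrobp), of the oligodendrocyte lineage 0 of 7 and of the astrocyte markers 1 of 9 (Aqp4). Their part in the values of the channel genes was not tested.

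**Figure D5:**
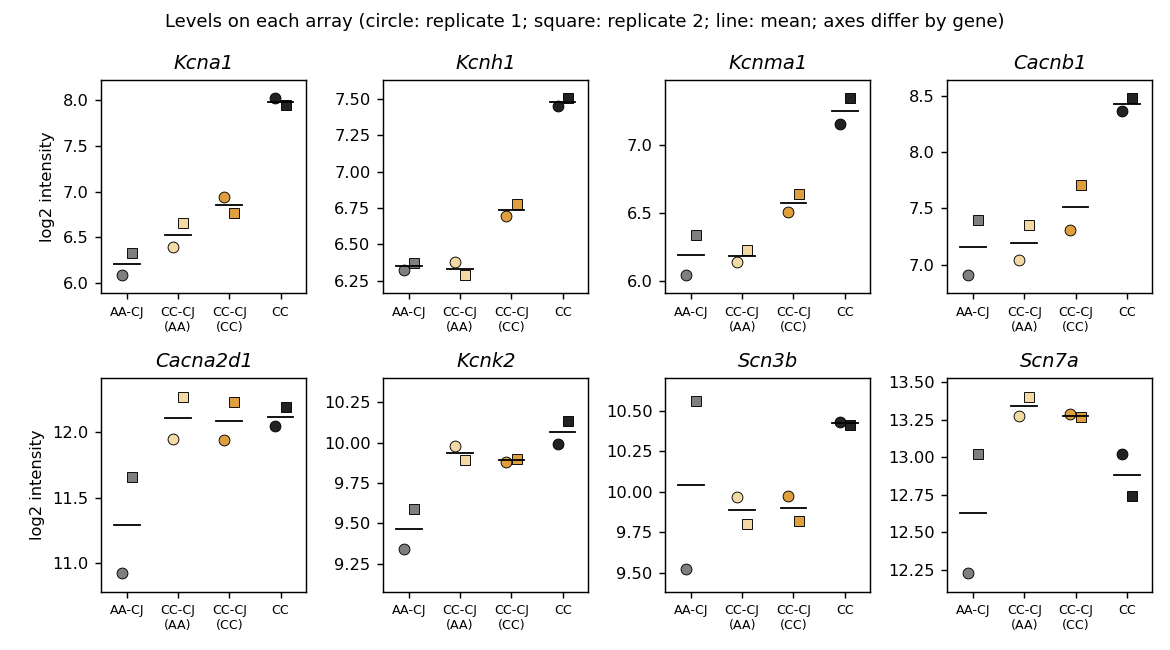
Log2 intensity (y axis, scale set per gene) of 8 channel genes in AA-CJ, in CC-CJ on the AA-CJ arrays, in CC-CJ on the CC arrays and in CC, with circles for replicate 1, squares for replicate 2 and lines for means. In Kcna1, Kcnh1, Kcnma1 and Cacnb1 both CC samples lie above all others, whereas in Cacna2d1 and Kcnk2 both AA-CJ samples lie below all others.

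A few genes that work with the channels fell, and most did not pass. Of 15 tested anchors and partners (19 of 25 listed were on the array), 2 fell with cold jet, against 2.26% of all genes. These were Fgf13, an intracellular partner of sodium channels (log2 change -1.77, adjusted p = 0.000295, limma), and Cntn1, an adhesion protein of the node that associates with sodium channels (-1.44, adjusted p = 0.000432). The median of the list was -0.10. Ank3 (ankyrin G), the anchor of sodium and Kv7 channels at the axon initial segment, changed by -0.07 (adjusted p = 0.705). Nfasc, which gathers channels at the node, gave -0.43 (adjusted p = 0.0884). In CC against AA-CJ 3 of 15 were higher, against 2.59% of all genes, namely Cntn1, Fgf13 and Nfasc. In CC-CJ against AA-CJ none of 15 passed in either direction (1.93% of all genes higher, 1.15% lower). There, 4 were higher and 0 lower at an unadjusted p below 0.05 (limma), against 2296 higher and 2519 lower of the 21311 genes tested.

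Of 17 tested genes that keep the ion gradients, 3 fell with cold jet, against 2.26% of all genes, with a median of 0.00. These were Atp1b1, a beta subunit of the sodium pump (-1.35, adjusted p = 0.000518), Slc12a5, the KCC2 potassium-chloride cotransporter of neurons (-0.94, adjusted p = 0.00209), and Clcn3, a chloride transporter of intracellular membranes (-0.67, adjusted p = 0.0174, limma). Between CC-CJ and AA-CJ, Atp1b1 was higher in the former by 0.77 (adjusted p = 0.0129, limma), the only gene of this list that passed there (1.93% of all genes were higher). In CC against AA-CJ Atp1b1 and Slc12a5 were higher, by 2.12 and 1.30 (2.59% of all genes were higher).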

How the data were processed

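The authors hybridized CC-CJ (Cy3) with AA-CJ or CC (Cy5) on 2-colour Agilent rat arrays. They deposited the scanner output of Feature Extraction 9.5.1.1, with spot intensities on a linear scale and Agilent's log10 ratio of Cy5 over Cy3, and a table of processed values. The deposited table of processed values holds log2 ratios that the authors normalized by OLIN and OSLIN. Its direction, Cy5 over Cy3, was found by comparison with the scanner values (r = 0.923 to 0.969 across probes). It served as an alternative. Probe positions are those of rn4 in the deposited files.

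In R 4.3.3 with limma 3.58.1, the background of mean signals was removed by normexp (offset 50), followed by loess within arrays (span 0.3). Outlier spots were left out, and 24851 of 41012 probes entered, each well above background on all arrays of 1 RNA group or more. Gene values are means over kept probes. M, as log2 of Cy3 over Cy5, was fitted with lmFit and eBayes over 4 arrays (2 residual and 4.72 prior degrees of freedom), and CC against AA-CJ is the difference of the coefficients. Adjusted p-values are Benjamini-Hochberg over 21311 genes. Levels were taken after loess and Aquantile. The steps were tested on simulated data. The number of arrays limits the precision.

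Members, lists and tests were chosen with earlier results of these data known. Genes named are those past an adjusted p of 0.05 that moved the same way on both arrays, and a list of 38 channel genes named whatever they showed, of which 22 were tested. Some of these genes are counted but not reported here by name. Kcns3, Kcnd3, Kcnk5, Cacnb2, Kcnmb4, genes called only under an alternative and genes of the lists of partners, ion gradients and markers were named after their values were seen. RefSeq (GRCr8) accessions matched 128 of 159 member probes. Alternatives covered background correction, normalization, filters, probe choice, arrays in the fit, the selection by 2 SD and left-out replicates.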

Additional observations from a re-analysis of the deposited data

Results flagged for a closer look

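Of 12 channel genes whose CC-CJ level was compared over the 4 arrays, 1 had a sample far from the others. For Scn7a the gap between the highest array and the next was 0.84 of the whole range, above the 95% critical value for 4 samples. The log2 levels were 13.27 and 13.41 on the AA-CJ arrays and 13.29 and 13.27 on the CC arrays, so that the array set apart was replicate 2 of the AA-CJ arrays, within a narrow range. Chance flags about 1 in 20 groups.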

How the results depend on the processing

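With 2 arrays per comparison, calls near the threshold moved with the processing. For CC-CJ against CC, 4 channel genes fell as reported. This became 28 with median centring in place of loess, 7 with the authors' values, 2 with the strict filter, that is, probes detected in each channel of each array (Cacnb1 and Scn2a1), and 2 to 5 without a replicate. Median centring placed the median of all genes at -0.59 and that of the channel genes at -0.30, and called 14297 of 21311 genes, so that falls there are not relative to other genes. That filter kept 30 channel genes and none of the 3 potassium channels that fell. Agilent's log ratio gave 3 falls (Cacnb4, Kcng1, Kcnh4) and not the 4 as reported, with Kcna1 at -2.20 (adjusted p = 0.0932, limma).
By class, potassium channels gave 14 falls with median centring, 0 with the strict filter and 1 to 3 without a replicate. Calcium channels gave 2 with offset 16, 7 with median centring, 2 with the authors' values and 1 to 1 without a replicate. HCN channels gave 2 with median centring and 1 each with the authors' values, the brightest probe and probes as the unit, and 0 to 0 without a replicate. Sodium channels gave 5 with median centring, 1 each with the strict filter, the brightest probe, the 2 arrays alone and probes as the unit, 2 with the selection by 2 SD (Scn2a1 and Scn3b), and 0 to 1 without a replicate. With the authors' values 1 channel gene was higher in CC-CJ than in CC (Kcnj13), in place of 0.
For CC-CJ against AA-CJ, the 1 higher gene became 0 with Agilent's log ratio, 2 with median centring, 3 with the authors' values, 2 with the 2 arrays alone, and 0 to 2 without a replicate. Lower genes were 0 as reported, 1 with Agilent's log ratio, 19 with median centring and 1 with the authors' values. Cacna2d1 reversed to -0.48, Kcnk2 to -0.59 and Scn7a to -0.75 with median centring, where the median of all genes was -0.49. For CC against AA-CJ, the 5 higher genes became 2 with Agilent's log ratio, 2 with the strict filter and 1 to 7 without a replicate. The cause of these shifts was not tested.
The arrays share replicate numbers without a stated common source, and deviations of same-numbered arrays correlated at -0.112 over genes. Cy3 levels, all of CC-CJ, correlated at 0.99826 and 0.99703 between same-numbered arrays and at 0.99542 to 0.99693 between the others. Whether same-numbered arrays share CC-CJ RNA was not tested, so that the CC-CJ readings need not be separate RNAs. With the replicate number as a block, 4 channel genes fell with cold jet, 0 were higher after co-culture than in astrocytes alone, both with cold jet, and 1 was higher in CC than in AA-CJ (Kcna1). With crossed pairing these counts were 4, 3 and 5.
Detection changed by more than 1.5 times for CC-CJ on the CC arrays when 1 of 2 arrays sufficed (49 in place of 31, with 13 in place of 8 calcium and 26 in place of 16 potassium channel genes), and for HCN channels in CC when probes were counted (5 in place of 3). Without a replicate, detection of all channel genes was 47 to 47 in AA-CJ, 57 to 65 in CC and 37 to 43 in CC-CJ. Kcna1 mRNA remaining was 23%, 45.8% without subtraction, -5.84% without loess and 17.3 to 28.7% in single pairs of same-numbered arrays. Over the 6 genes of the 1.5-fold limit the mean was 43.5%. It includes Kcnh1 and Kcnma1, which were at background in AA-CJ, and Cacna2d1 with 98% and Kcnk2 with 66.1%. It is therefore a description only and no measure of the neuronal mRNA left. The median AA-CJ level in percent of CC was 88% without loess and 90.7% with offset 16 for all channel genes, 88.6% and 92% for potassium and 76.9% and 77.1% for HCN channels, and 87.9% without loess for calcium channels.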
